A study of Mus musculus with 16 samples.

Results

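Day 2 endoderm progenitors, sorted as Foxa2+, T- cells with low CD24 (F+CD24low D2), were compared with undifferentiated mouse embryonic stem cells (ES). The comparison rests on 4 of the 16 arrays of the series, 2 biological replicates in each group, chosen by the gate and the day that the sample labels give. Every group came from a reporter mESC line with the genotype T GFP/+; Foxa2 tagRFP/+, in which GFP reads out one allele of T and tagRFP one allele of Foxa2. The labels name this line E14.1, and the methods of the study name G4 as the parental line. ES cells were kept on mitomycin C-treated embryonic fibroblasts (feeders) with serum and LIF, and the labels state that they were not sorted. Progenitors were cleared of these feeders on gelatine and differentiated for 2 days in serum-free medium with 12 ng/ml activin A, a Nodal-like ligand, on other feeders that express Wnt3a, and then passed through the sorter. Feeders, serum, LIF, sort and differentiation therefore changed together between the groups, and their parts in a difference cannot be told apart. A pair of day 2 populations stood beside the progenitors as a reference: T+ cells with low CD24 (T+CD24low D2, mesoderm progenitors), grown with 7.5 ng/ml Bmp4 and less activin A (3 ng/ml), and Foxa2+ cells with high CD24 (F+CD24high D2, definitive endoderm), grown with 12 ng/ml activin A.

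Embryonic stem cells kept in LIF resemble the naive epiblast before implantation, and a network of transcription factors that includes Esrrb, Klf4 and Zfp42 keeps them in that state. When the network is switched off, cells pass through a formative, epiblast-like phase that retains Pou5f1 and Nanog, and Nodal and Wnt signals then induce primitive streak genes such as Mixl1 and Eomes. The anterior end of the streak, marked by Foxa2, Gsc and Chrd, gives rise to definitive endoderm, which later switches on Sox17, and to axial mesoderm.

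The arrays were of the type Affymetrix Mouse Gene ST 1.0, and 1 log2 value per probe set, normalized by robust multichip average (RMA), was deposited for each array. All levels below are these log2 values, and all differences are log2 fold changes, progenitors minus ES unless another pair is named. Medians of the 4 arrays lay between 7.42 and 7.47. Across probe sets, the ES arrays correlated at r = 0.989 with each other, the progenitor arrays at r = 0.993, and arrays of different groups at r between 0.967 and 0.970. A gene was called when its log2 fold change exceeded 1 in either direction and its Benjamini-Hochberg adjusted p, from a limma model of all 16 arrays, was below 0.05. The words rose and fell are kept for genes that met both thresholds. All p-values below are these adjusted values, and the small number of arrays, 2 in each group, limits how precise they can be.

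More genes fell than rose in endoderm progenitors against ES cells. Of the 18716 genes, 271 rose (1.45%) and 616 fell (3.29%), and the median of all genes was 0.05. Larger changes were also more often falls: 47 genes rose by more than 2 on the log2 scale and 192 fell by more than 2. With no size threshold the counts were nearly even, 1772 higher and 1945 lower at an adjusted p below 0.05. The ES cells were unsorted and grown on feeders, and the summed level of the fibroblast genes described below was higher on both ES arrays than on any sorted array. Both arrays of one group lay beyond both of the other in all 887 called genes, which was also true of 62.1% of all genes. Where such separation is mentioned for a called gene below, it therefore adds nothing to the call. Foxa2, the gene of the gate, was at 7.32 and 7.71 on the ES arrays and at 11.09 and 11.41 on the progenitor arrays, and this difference of 3.73 checks the sort and is no finding. Cd24a, the other sorted gene, was at 12.11 and 11.75 on the ES arrays and at 12.67 and 12.55 on the progenitor arrays, a difference of 0.68 that was not called. T was not analysed here.

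**Figure D1:**
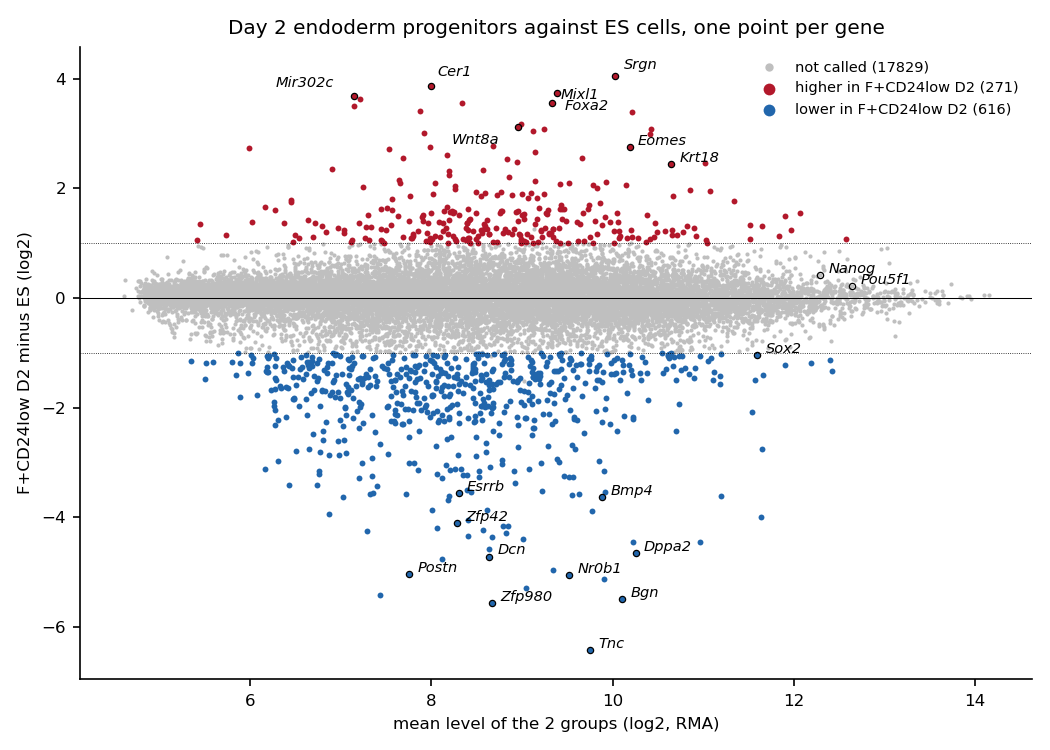
Each point is 1 of 18716 genes, with the mean log2 level of the ES and F+CD24low D2 groups on the horizontal axis and the log2 fold change, F+CD24low D2 minus ES, on the vertical axis; dotted lines mark log2 fold changes of 1 and -1. The 271 red genes rose and the 616 blue genes fell; Srgn and Cer1 lie at the top and Tnc at the bottom.

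The leading risers joined streak regulators to 4 microRNA hairpins of a single cluster. Ranked by log2 fold change, the 15 highest genes were Srgn, Cer1, Foxa2, Mir302c, Mir302a, Cubn, Mixl1, Mir302b, Mir302d, Ndrg1, Ppp4r4, Wnt8a, Trim67, Fgf8 and Alox15. The hairpins belong to the miR-302 cluster, a microRNA transcript typical of epiblast-stage pluripotent cells. In the RefSeq annotation of GRCm38.p6 the cluster spans 580 bases on the plus strand at chr3:127545228-127545807, within the long non-coding RNA Gm51018 and within the span of the protein-coding gene Larp7. The mature 3p strands that the RefSeq table holds for this cluster follow because their seeds decide which mRNAs they pair with, with bases 2 to 8 of each sequence in capitals.
miR-302b-3p (chr3:127545275-127545297): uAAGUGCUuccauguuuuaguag
miR-302c-3p (chr3:127545406-127545427): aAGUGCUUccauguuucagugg
miR-302d-3p (chr3:127545665-127545687): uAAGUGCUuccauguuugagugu
miR-367-3p (chr3:127545779-127545800): aAUUGCACuuuagcaaugguga
miR-302b-3p and miR-302d-3p share the seed AAGUGCU, which stands 1 base nearer to the 5′ end of the listed miR-302c-3p, and miR-367-3p has a seed of its own.

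All hairpins of the cluster that were measured rose. Mir302c was at 5.00 and 5.61 on the ES arrays and at 9.52 and 8.47 on the progenitor arrays, a rise of 3.69 (standard error 0.46, adjusted p = 0.00021). Mir302a rose by 3.63, Mir302b by 3.50 and Mir302d by 3.42, and Mir367, named after its values were seen, rose by 2.74 (standard error 0.34, adjusted p = 0.000217). In each of the 4 hairpins of the miR-302 type ES replicate 2 was above ES replicate 1 and progenitor replicate 1 was above progenitor replicate 2, and the groups did not overlap. The hairpins lie side by side in 1 transcript and are not independent observations, and the probe sets do not separate the mature strands from their precursor. Larp7, which encodes an RNA-binding protein of the 7SK complex, was at 11.05 and 10.82 on the ES arrays and at 11.63 and 11.56 on the progenitor arrays, and its difference of 0.66 (adjusted p = 0.000415) was too small to be called. Of the 233 microRNA genes measured, 7 rose (3%, against 1.45% of all genes) and 1 fell (0.429%, against 3.29%). The risers include the hairpins of this cluster.

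Genes of the primitive streak were among the steepest rises. Of the 12 measured genes of the list, 5 rose and 1 fell, with a median of 0.64. Mixl1, a homeobox gene of the streak, was at 7.55 and 7.55 on the ES arrays and at 11.10 and 11.14 on the progenitor arrays, so that neither pair overlapped the other. Its rise of 3.56 (standard error 0.17, adjusted p = 9.55e-08) is an 11.8-fold difference in level. Eomes, the T-box factor needed for endoderm formation, was at 9.02 and 8.61 on the ES arrays and at 11.36 and 11.77 on the progenitor arrays, a rise of 2.76 (adjusted p = 2.47e-07). Wnt8a, a Wnt ligand of the streak, was at 7.39 and 7.39 on the ES arrays and at 10.48 and 10.55 on the progenitor arrays. The ES arrays almost coincided, and its rise of 3.12 had a standard error of 0.10 (adjusted p = 9.41e-09). Fgf8, which cells need to leave the streak, rose by 3.09 (adjusted p = 5.93e-08), and Wnt3, which is required for streak formation, rose by 1.99 (adjusted p = 2.48e-06). Nodal itself did not pass the size threshold at 0.70 (adjusted p = 0.000675), nor did the Wnt-responsive factor Sp5 at 0.26 (adjusted p = 0.176). Ifitm1, an interferon-inducible surface protein of nascent mesoderm, was the list member that fell, by 1.45 (adjusted p = 6.99e-05).

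Of the 13 measured genes of the anterior streak and the organizer, 6 rose and 0 fell (median 0.71). Cer1, a secreted inhibitor of Nodal, Wnt and Bmp, was at 5.78 and 6.34 on the ES arrays and at 10.12 and 9.73 on the progenitor arrays. Both progenitor arrays were far above both ES arrays, and the rise was 3.86 (standard error 0.28, adjusted p = 2.94e-06). Chrd, a Bmp antagonist of the organizer, was at 7.21 and 7.37 on the ES arrays and at 10.00 and 10.14 on the progenitor arrays, a rise of 2.78 (adjusted p = 9.48e-07). Lhx1, a LIM homeobox factor of anterior mesendoderm, was at 6.47 and 6.74 on the ES arrays and at 9.38 and 9.33 on the progenitor arrays, a rise of 2.75 (adjusted p = 4.01e-07). Gsc, the organizer homeobox gene, rose by 1.58, the Wnt inhibitor Dkk1 by 1.51 and Foxj1, a regulator of motile cilia, by 1.13. Hesx1 (-0.03, adjusted p = 0.958) and the Wnt inhibitor Frzb (-0.35, adjusted p = 0.207) did not pass.

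Definitive endoderm genes had mostly not risen at day 2. Of 18 measured, 2 rose, Cer1 and Gata6, and 0 fell (median 0.45). Gata6, a zinc finger factor of endoderm, was at 7.91 and 8.04 on the ES arrays and at 9.67 and 9.40 on the progenitor arrays, a rise of 1.56 (standard error 0.11, adjusted p = 2.63e-06). Sox17, which drives endoderm identity, was at 6.31 and 6.34 on the ES arrays and at 6.99 and 6.81 on the progenitor arrays. Its progenitor arrays lay above its ES arrays, but the difference of 0.57 did not pass (95% interval 0.15 to 0.99, adjusted p = 0.0697). Hhex, a homeobox factor of the foregut and liver, was at 0.17 (adjusted p = 0.427), the chemokine receptor Cxcr4 at 0.36 (adjusted p = 0.179) and the pioneer factor Foxa1 at 0.71 (adjusted p = 0.055). Gata4 (0.73, adjusted p = 0.00267), the hormone precursor Trh (0.91, adjusted p = 0.00278) and Apela, the ligand of the apelin receptor (0.90, adjusted p = 0.000225), passed the p threshold and not the size threshold.

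The same progenitor arrays were set against the other day 2 populations, in comparisons that use no ES array but share the progenitor arrays with the one above. The mesoderm progenitors themselves had 254 genes higher (1.36%) and 670 lower (3.58%) than ES cells. Against T+CD24low D2 cells 121 genes were higher in the progenitors (0.647%) and 101 were lower (0.54%). These counts depended on single arrays: 79 were higher without T+CD24low D2 replicate 2, 80 were higher without F+CD24low D2 replicate 1, and 67 were lower without T+CD24low D2 replicate 1. With the 8 ES and day 2 arrays fitted alone, 79 were higher and 63 lower. In F+CD24high D2 cells 333 genes were higher (1.78%) and 342 were lower (1.83%) than in the progenitors. Both gates are of day 2, and an order between them was not tested. The F+CD24high D2 replicates differed in Wnt3a, which the feeders of the differentiation expressed, at 7.4 and 9.2. On the mesenchymal list Cdh11 was at 7.8 and 9.7 and Vim at 12.1 and 13.2, while Mmp14 and Acta2 were lower on replicate 2. The part of feeder RNA in this comparison was not tested. On the primitive streak list 0 of 12 genes were higher in the endoderm than in the mesoderm progenitors and 2 were lower; Mixl1 differed by 0.75, Eomes by -0.26, Fgf8 by 0.50 and Wnt8a by 0.06, none of them called. On the anterior streak list 4 of 13 were higher and 1 was lower. Cer1 was 3.28 above the mesoderm progenitors, Chrd 2.39 and Gsc 1.59, all called, while Lhx1 differed by -0.06 (adjusted p = 0.965).

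Between the progenitors and F+CD24high D2 cells most of the definitive endoderm list differed. Of its 18 genes 12 were higher in F+CD24high D2 cells and 1 was lower, with a median of 1.77. Sox17 was higher there by 3.85, Cxcr4 by 3.74, Foxa1 by 2.99, Hhex by 2.89 and Gata6 by 2.85. Mixl1, which rose in the progenitors against ES cells, was higher there by 1.28 (adjusted p = 0.000417). Lhx1 was higher there by 3.27, Cer1 by 2.91 and Dkk1 by 3.92. Wnt8a and Chrd went the other way. Wnt8a was at 7.03 and 6.95 on the F+CD24high D2 arrays, 3.53 below the progenitors, and Chrd was 1.08 lower (adjusted p = 0.0018).

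**Figure D2:**
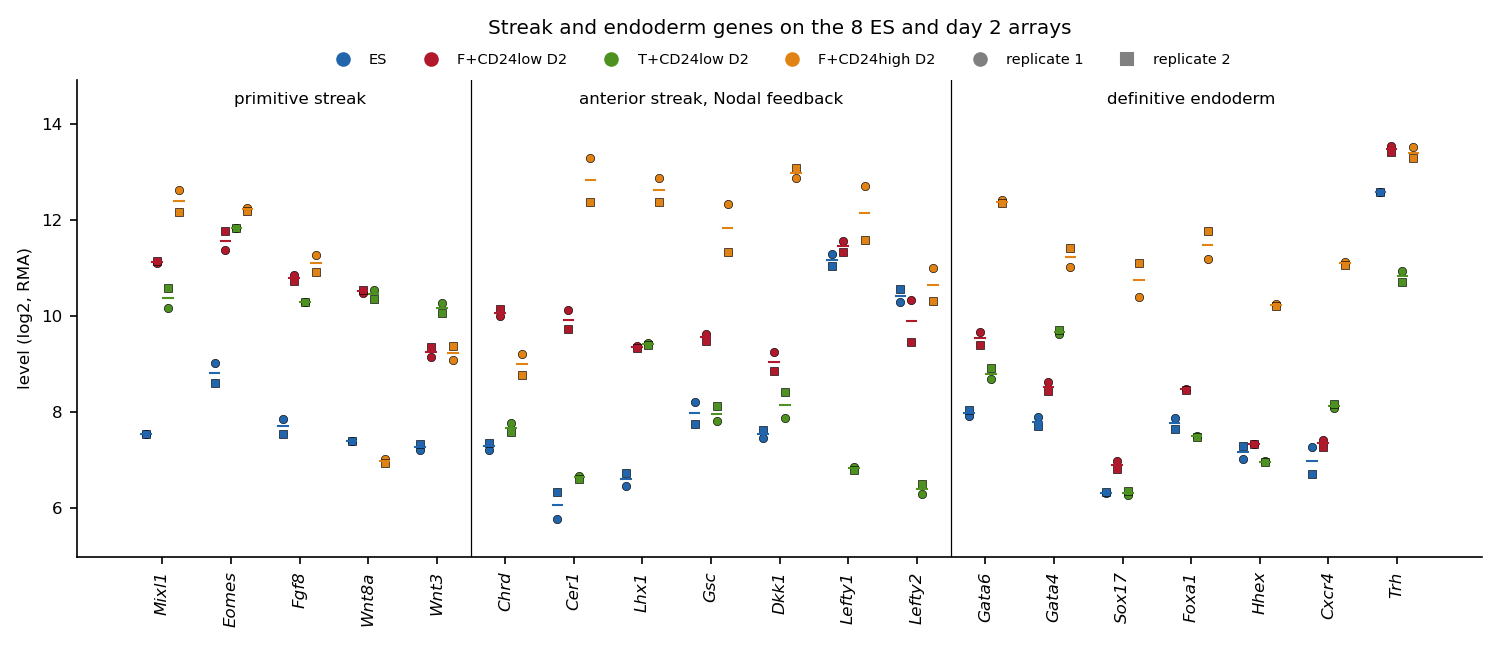
The vertical axis gives the RMA log2 level of 19 genes on 8 arrays, with circles for replicate 1, squares for replicate 2 and a bar at the mean of each group: ES (blue), F+CD24low D2 (red), T+CD24low D2 (green) and F+CD24high D2 (orange). Mixl1, Eomes and Fgf8 stand closer to F+CD24high D2 than to ES levels in the red group, whereas Sox17, Hhex and Cxcr4 stand closer to ES levels.

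Feedback inhibitors of Nodal were not called against ES cells but differed between the progenitors of day 2. Lefty1 was at 11.28 and 11.04 on the ES arrays and at 11.57 and 11.32 on the progenitor arrays, and the lower progenitor array was just above the higher ES array (0.28, adjusted p = 0.552). Lefty2 was at 10.29 and 10.55 on the ES arrays and at 10.33 and 9.47 on the progenitor arrays, with the lower progenitor array below both ES arrays (-0.52, adjusted p = 0.339). On the T+CD24low D2 arrays Lefty1 was at 6.86 and 6.80 and Lefty2 at 6.30 and 6.51. The endoderm progenitors were above them by 4.61 and 3.50 (adjusted p = 5.04e-06 and 0.000135). Of the 18 genes of the Nodal and activin list 4 rose against ES cells and 0 fell (median 0.50), and the risers were Cer1, Mixl1, Eomes and Gsc. Foxh1, the DNA-binding partner of Smad proteins, was at 0.71 (adjusted p = 0.000372) and the coreceptor Cfc1 at 0.53 (adjusted p = 0.0986).

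Bmp ligands changed in opposite directions. Of the 12 ligands and antagonists 3 rose and 3 fell (median 0.03). Bmp4 was at 11.32 and 12.07 on the ES arrays and at 7.85 and 8.28 on the progenitor arrays, and fell by 3.63 (standard error 0.32, adjusted p = 1.48e-05). Bmp2 was at 5.56 and 5.88 on the ES arrays and at 8.18 and 7.99 on the progenitor arrays, a rise of 2.36 (adjusted p = 5.43e-06), and Bmp7 was at 8.02 and 7.60 on the ES arrays and at 10.40 and 10.56 on the progenitor arrays, a rise of 2.67 (adjusted p = 7.93e-05). None of the 3 ligands had overlapping groups, as held for every called gene. Gdf3, a Nodal-related ligand of pluripotent cells, fell by 1.84, and Grem1, a Bmp antagonist also made by fibroblasts, fell by 3.27. Of 13 Bmp target genes 0 rose and 3 fell. Id1 and Id2, inhibitors of basic helix-loop-helix factors, fell by 1.53 (adjusted p = 0.0096) and 1.86 (adjusted p = 0.000461), and both were also below the mesoderm progenitors, which had received Bmp4, by 2.47 and 2.72. Id3 was at 0.52 (adjusted p = 0.0459) and Smad6 at 0.60 (adjusted p = 0.00436).

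A minority of Wnt and Fgf genes were called, in both directions, while over all genes 1.45% rose and 3.29% fell. Of 19 Wnt ligands and receptors 3 rose and 1 fell: Wnt11, a non-canonical ligand, joined Wnt3 and Wnt8a with a rise of 1.10, and Wnt5a fell by 3.02 (adjusted p = 1.95e-08). Wnt5a was at 9.34 and 9.29 on the ES arrays and at 6.37 and 6.23 on the progenitor arrays, and it was also lower than in mesoderm progenitors, where it was at 8.81 and 8.92. Of 13 Wnt targets 1 rose, Lgr5 (1.31, adjusted p = 4.56e-05), and 1 fell, Notum (-1.26, adjusted p = 0.000149). Axin2, a negative regulator that reports canonical signalling, was at 0.76 and missed the size threshold (adjusted p = 0.00384). Among secreted Wnt inhibitors Cer1 and Dkk1 rose, and Dkk2 (-2.23) and Notum fell. Of 22 Fgf ligands and feedback genes 3 rose and 3 fell. Fgf4, the autocrine ligand of ES cells, was at 10.31 and 10.96 on the ES arrays and at 7.85 and 8.01 on the progenitor arrays, and fell by 2.70 (adjusted p = 2.35e-06). Fgf5, the classical marker of postimplantation epiblast, was at 10.35 and 9.85 on the ES arrays and at 12.02 and 12.09 on the progenitor arrays, a rise of 1.96 (adjusted p = 3.24e-06), and no array of one group reached the other.

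The naive pluripotency genes fell as a body, while most core genes were not called. Of 15 measured naive genes 15 fell (median -2.19), and of 13 core genes 3 fell and 0 rose (median -0.12). Nr0b1, an orphan nuclear receptor of the naive network, was at 11.36 and 12.73 on the ES arrays and at 7.06 and 6.93 on the progenitor arrays. The progenitor arrays were close together and far below the ES arrays, which differed from each other by more than 1, and Nr0b1 fell by 5.05 (standard error 0.51, adjusted p = 4.44e-05). Zfp42 (Rex1) was at 9.95 and 10.72 on the ES arrays and at 6.31 and 6.13 on the progenitor arrays, and fell by 4.11 (adjusted p = 1.92e-07). Esrrb, an orphan nuclear receptor, fell by 3.56, Nr5a2 of the same family fell by 3.62, Tfcp2l1 fell by 2.31 and Klf4 fell by 1.69. The smallest falls on the list were those of Prdm14 (1.05, adjusted p = 0.00275) and Klf2 (1.14, adjusted p = 0.000938).

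Pou5f1 and Nanog were not called, and their progenitor arrays lay above their ES arrays. Pou5f1 (Oct4) was at 12.47 and 12.59 on the ES arrays and at 12.69 and 12.82 on the progenitor arrays, a difference of 0.22 with a 95% interval of -0.32 to 0.77 (adjusted p = 0.623). Nanog was at 12.01 and 12.16 on the ES arrays and at 12.51 and 12.49 on the progenitor arrays, and its difference of 0.42 (adjusted p = 0.0399) was below the size threshold. Sox2, the partner of Pou5f1, was at 11.94 and 12.31 on the ES arrays and at 11.11 and 11.04 on the progenitor arrays, and fell by 1.05 (adjusted p = 0.000552), which barely met the size threshold. All of these were lower in F+CD24high D2 cells than in the progenitors, Pou5f1 by 2.20, Nanog by 1.38 and Sox2 by 3.16. The other core genes that fell were Dppa2 and Dppa4, a pair of chromatin proteins of pluripotent cells. Dppa2 was at 12.56 and 12.59 on the ES arrays and at 7.87 and 7.99 on the progenitor arrays, and fell by 4.64 (adjusted p = 3e-06), and Dppa4 fell by 3.23 (adjusted p = 5.93e-08).

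**Figure D3:**
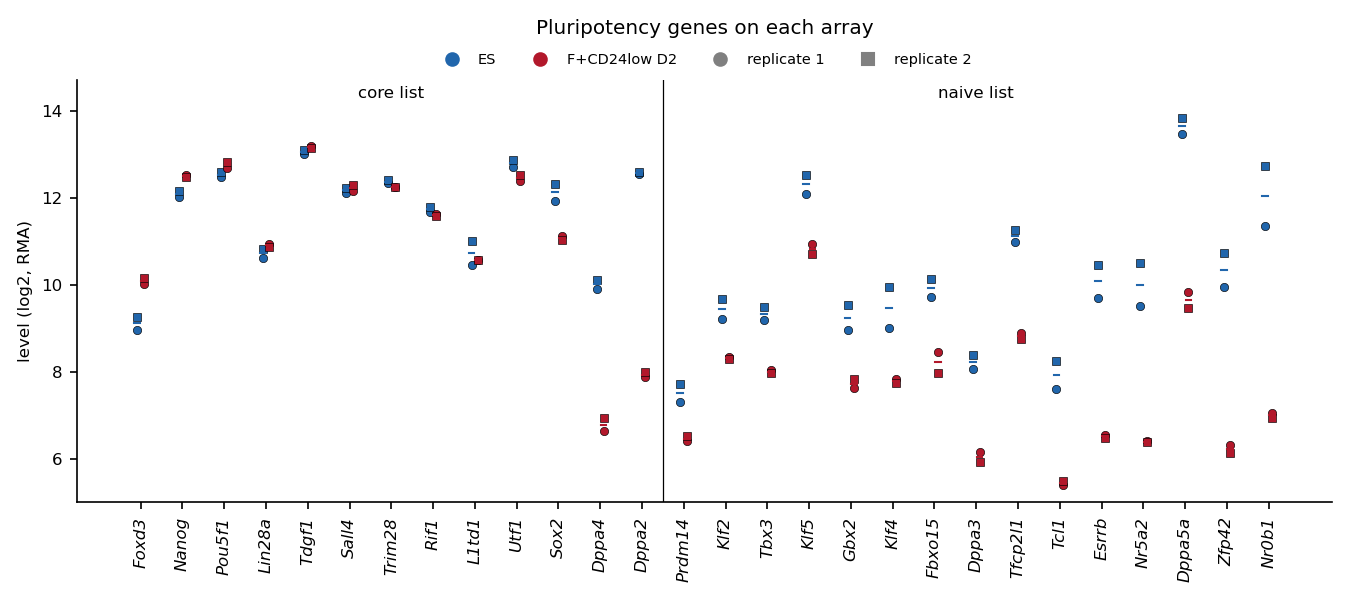
The vertical axis gives the RMA log2 level of the 13 core genes (left) and 15 naive genes (right) on the ES (blue) and F+CD24low D2 (red) arrays, with circles for replicate 1, squares for replicate 2 and a bar at each mean. The red points of every naive gene lie below both blue points, and ES replicate 2 is above ES replicate 1 in all of these genes.

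Most formative epiblast genes were not called. Of 17 measured, 2 rose and 1 fell, while 1.45% of all genes rose and 3.29% fell. The median was 0.33, against 0.05 over all genes. Beside Fgf5, the ephrin receptor Epha1 was at 9.16 and 8.84 on the ES arrays and at 10.71 and 10.75 on the progenitor arrays, a rise of 1.73 (adjusted p = 9.91e-06). Otx2, which directs exit from the naive state, was at 0.70 (adjusted p = 0.00264), and the zinc finger factor Zic2 at 0.84 (adjusted p = 0.000909). Pou3f1, a POU factor of the epiblast, was at -0.65 (adjusted p = 0.0173), and Fgf15 fell by 1.16.

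Most genes of the response to LIF, a cytokine that the ES medium contained, fell. Of 10 measured, 6 fell and 0 rose (median -1.33). Stat3, the transcription factor that LIF activates, was at 10.79 and 10.78 on the ES arrays and at 9.48 and 9.41 on the progenitor arrays, and fell by 1.34 (standard error 0.09, adjusted p = 1.17e-06). The groups did not overlap, as held for every called gene, and each pair of replicates lay close together. The receptor Lifr fell by 1.70, the feedback inhibitor Socs3 by 1.53 (-0.66 in its other probe set), Bcl3 by 2.49 and the kinase Pim1 by 1.32. Osmr, the oncostatin M receptor, fell by 3.24 and was higher on ES replicate 1 (9.50) than on ES replicate 2 (8.42), as most fibroblast genes described below were. Il6st, the shared signal transducer, was at -0.96 and missed the size threshold (adjusted p = 0.000344).

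Some germline genes and some enzymes of DNA methylation fell, as did 3.29% of all genes. Of 13 germline genes 5 fell and 0 rose (median -0.68), and 0 were called when 16000 probe sets were kept and fewer genes were tested. Ddx4 (Vasa), an RNA helicase of germ cells, was at 8.13 and 8.59 on the ES arrays and at 5.14 and 5.17 on the progenitor arrays, and fell by 3.21 (adjusted p = 6.01e-08). Sycp3, a protein of the synaptonemal complex, was at 7.45 and 7.99 on the ES arrays and at 4.56 and 4.64 on the progenitor arrays, and fell by 3.12 (adjusted p = 2.47e-07). Tdrd12 (-3.12) and Mael (-2.97), both of the piRNA pathway, and Sycp1 (-1.33) also fell. Among 8 DNA methylation enzymes 3 fell and 0 rose. Dnmt3l, a cofactor of the de novo methyltransferases, was at 11.12 and 11.70 on the ES arrays and at 8.03 and 7.65 on the progenitor arrays, and fell by 3.57 (adjusted p = 2.6e-05). Tet2 fell by 2.69 and Tet1 by 1.12, while the methyltransferases Dnmt3a (-0.72, adjusted p = 0.00886) and Dnmt3b (0.43, adjusted p = 0.0177) were not called. Prdm1, a repressor that specifies germ cells and is also used in endoderm, fell by 1.98. It was 3.57 higher in F+CD24high D2 cells than in the progenitors.

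Genes of fibroblasts and of extracellular matrix stood beside zinc finger and pluripotency genes among the deepest falls. The 15 lowest genes were Tnc, Zfp980, Bgn, Zfp640, Emp1, Igfbp7, Nr0b1, Postn, Ptgs2, Lox, Dcn, Dppa2, Arhgdib, Thbs1 and Acta2. Of the 21 measured fibroblast genes, a list written for cells that ES cultures contain, 15 fell and 0 rose (median -1.91). Tenascin C (Tnc), an extracellular matrix protein on the mesenchymal list, was at 12.98 and 12.95 on the ES arrays and at 6.42 and 6.65 on the progenitor arrays, and fell by 6.43 (standard error 0.23, adjusted p = 1.46e-08) or 86.1-fold. Periostin (Postn) was at 10.36 and 10.18 on the ES arrays and at 5.17 and 5.31 on the progenitor arrays, and fell by 5.03 (adjusted p = 1.44e-09), and decorin (Dcn) was at 10.80 and 11.18 on the ES arrays and at 6.22 and 6.33 on the progenitor arrays, and fell by 4.72 (adjusted p = 6.06e-09). Col1a1, the chain of the main fibroblast collagen, was at 9.96 and 9.59 on the ES arrays and at 8.18 and 8.35 on the progenitor arrays and did not pass (-1.51, adjusted p = 0.0616). The log2 of the summed level of the list was 14.93 and 14.57 on the ES arrays, 12.28 and 12.27 on the progenitor arrays, and between 11.97 and 13.27 on all 14 sorted arrays. In such bulk samples, fewer cells of a type and less RNA per cell cannot be told apart.

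The ES arrays differed between themselves in the same genes, and in opposite directions for the naive and the fibroblast lists. Over all genes the median gap between the ES replicates was 0.14 in absolute size. Among the genes that fell it was 0.44, and among those that rose 0.26. ES replicate 1 was the higher one in 18 of 21 fibroblast genes, with a median gap of 0.37. It was the higher one in 0 of 15 naive genes, with a median gap of -0.46, in 0 of 13 core genes, in 4 of 13 germline genes and in 0 of 19 genes of the S and G2/M phases (median gap -0.22). Over the 616 genes that fell, ES replicate 1 was higher in 304 and ES replicate 2 in 312. Of these 616 genes 20 are on the fibroblast or mesenchymal list, 18 on the naive or core list and 525 on none of the 40 lists. The part of feeder RNA in the falls of unlisted genes was not tested.

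**Figure D4:**
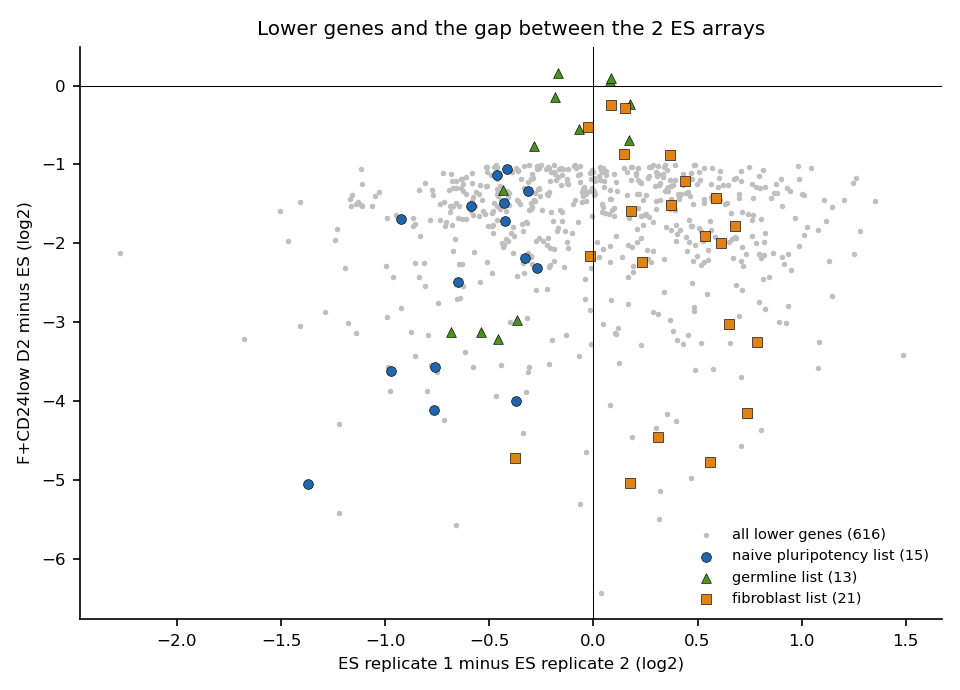
Each grey point is 1 of the 616 genes that fell, with the gap between the ES arrays (replicate 1 minus replicate 2, log2) on the horizontal axis and the log2 fold change, F+CD24low D2 minus ES, on the vertical axis; blue circles, green triangles and orange squares are all measured members of the naive, germline and fibroblast lists. The naive genes lie left of 0 and 18 of the 21 fibroblast genes lie right of it.

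Mesenchymal genes and the transcription factors of epithelial-mesenchymal transition (EMT) are to be read beside these values. Of 12 mesenchymal genes 8 fell and 0 rose (median -1.45), with ES replicate 1 higher in 11 of 12. Of 8 EMT factors 3 fell and 0 rose (median -0.45), with ES replicate 1 higher in 7 of 8. Snai2 was at 10.20 and 9.65 on the ES arrays and at 7.20 and 7.36 on the progenitor arrays, and fell by 2.64 (adjusted p = 4.28e-05). Zeb1 fell by 2.15 and Twist2, which is also on the fibroblast list, by 3.02. Snai1, the EMT factor of the streak, was at 8.72 and 8.36 on the ES arrays and at 8.62 and 8.87 on the progenitor arrays. Its arrays overlapped between the groups (0.21, adjusted p = 0.439). The mesoderm progenitors showed the same falls against ES cells, Snai2 at -2.78, Zeb1 at -1.70 and Twist2 at -2.76, all called. In the endoderm against the mesoderm progenitors, Mesp1 (-1.74) and Zeb2 (-1.17) were called lower. Snai1 was at -0.89 there (adjusted p = 0.01), and it and the other factors were not called. N-cadherin (Cdh2) was at 10.69 and 10.07 on the ES arrays and at 9.85 and 9.63 on the progenitor arrays, with a difference of -0.64 that was not called (adjusted p = 0.0202), and it was 2.18 higher in F+CD24high D2 cells than in the progenitors. Fibronectin (Fn1) fell by 2.76 against ES cells and was also 1.80 below the mesoderm progenitors.

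Simple keratins rose, while most junction genes were not called. Of 18 genes of junctions and keratins 3 rose and 1 fell (median 0.37), and of 17 polarity genes 2 rose and 0 fell. E-cadherin (Cdh1) was at 12.37 and 12.43 on the ES arrays and at 12.56 and 12.45 on the progenitor arrays, a difference of 0.11 (95% interval -0.09 to 0.30, adjusted p = 0.507). Krt8 and Krt18, which pair in the filaments of simple epithelia, rose together. Krt18 was at 9.70 and 9.16 on the ES arrays and at 12.10 and 11.64 on the progenitor arrays, a rise of 2.44 (adjusted p = 8.12e-06), and Krt8 was at 10.71 and 10.20 on the ES arrays and at 12.37 and 12.09 on the progenitor arrays, a rise of 1.78 (adjusted p = 1.2e-05). No progenitor array was as low as an ES array in either keratin. The mesoderm progenitors were also above ES cells in Krt18 and Krt8, by 1.86 and 1.23, both called. Between the endoderm and the mesoderm progenitors the differences of 0.58 and 0.55 were not called. Krt19 rose by 1.14, the apical sialomucin Podxl by 1.20 and the Crumbs protein Crb3 by 1.00, while claudin 4 (Cldn4) fell by 1.07 (adjusted p = 0.00843). Grhl3, a transcription factor of epithelia on the list of EMT suppressors, fell by 1.93 and was 2.58 higher in F+CD24high D2 cells.

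Enzymes of cholesterol synthesis were higher in the progenitors throughout the pathway, by modest amounts. Of 18 measured genes 7 rose and 0 fell, with a median of 0.83, and all 18 had a difference above 0, as did 57.7% of all genes. Lanosterol synthase (Lss) was at 10.28 and 10.04 on the ES arrays and at 11.55 and 11.41 on the progenitor arrays, a rise of 1.32 (standard error 0.15, adjusted p = 9.85e-05). Msmo1, the sterol C4-methyl oxidase, was at 11.44 and 11.25 on the ES arrays and at 12.61 and 12.57 on the progenitor arrays, a rise of 1.25 (adjusted p = 3.24e-06), and Ebp, the sterol isomerase, was at 8.72 and 8.72 on the ES arrays and at 9.98 and 9.98 on the progenitor arrays, a rise of 1.26 (adjusted p = 7.58e-05). The arrays of the groups were apart in each of the 3, as held for every called gene. Mvd, Stard4, Nsdhl and Tm7sf2 rose by 1.18, 1.11, 1.07 and 1.04. The first enzyme, Hmgcs1, was at 0.96 (adjusted p = 0.000382), and Srebf2, the transcription factor that controls the pathway, at 0.74 (adjusted p = 0.000202). None of the 18 was called between the progenitors and either T+CD24low D2 or F+CD24high D2 cells, where the medians were 0.08 and 0.26 and limma gave 1 and 8 genes an unadjusted p below 0.05. The ES medium contained serum and the differentiation medium did not, so medium and cell state cannot be told apart here.

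The 250 bases before the start of the 3 genes of this pathway with the highest rise are shown because its genes moved together. They are taken from RefSeq on GRCm38.p6 and written on the strand of the gene, with capitals for CCAAT on either strand (so that ATTGG is its reverse) and for TCACNCCA on either strand, a form of the sterol regulatory element.
Lss (plus strand, chr10:76531355-76531604): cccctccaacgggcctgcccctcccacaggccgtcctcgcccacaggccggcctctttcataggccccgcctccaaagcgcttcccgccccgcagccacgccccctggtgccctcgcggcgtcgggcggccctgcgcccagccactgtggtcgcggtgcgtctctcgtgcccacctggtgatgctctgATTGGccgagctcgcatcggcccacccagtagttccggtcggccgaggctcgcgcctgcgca
Ebp (minus strand, chrX:8193513-8193762): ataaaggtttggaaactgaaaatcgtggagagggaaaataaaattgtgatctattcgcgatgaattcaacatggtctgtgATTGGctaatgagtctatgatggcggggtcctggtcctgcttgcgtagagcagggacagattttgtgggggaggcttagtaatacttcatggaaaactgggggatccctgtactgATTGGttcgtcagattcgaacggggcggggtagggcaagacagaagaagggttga
Msmo1 (minus strand, chr8:64733579-64733828): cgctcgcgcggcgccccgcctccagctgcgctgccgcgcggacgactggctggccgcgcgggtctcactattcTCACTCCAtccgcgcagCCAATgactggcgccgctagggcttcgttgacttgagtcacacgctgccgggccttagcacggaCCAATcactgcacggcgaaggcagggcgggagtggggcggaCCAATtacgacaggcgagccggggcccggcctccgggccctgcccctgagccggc
CCAAT, the letters that the factor NF-Y reads, was found in 14 of the 14 list members with a promoter in the table, and in 37.5% of all 27025 genes with one. TCACNCCA was found in 3 of the 14, Msmo1, Hmgcs1 and Srebf2, and in 4.2% of all genes. A match is a description of the letters and not a binding site, and Stard4, Sqle, Fdps and Fdft1 had no entry.

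Retinoic acid genes and extracellular proteases changed in both directions, while over all genes 1.45% rose and 3.29% fell. Of 18 nuclear receptor and retinoic acid genes 2 rose and 5 fell, and 3 of the 5 are the naive receptors Nr0b1, Nr5a2 and Esrrb. Crabp1, a retinoic acid binding protein, was at 13.25 and 12.76 on the ES arrays and at 9.30 and 9.50 on the progenitor arrays, and fell by 3.60 (adjusted p = 1.6e-07). Cyp26a1, which degrades retinoic acid, was at 6.50 and 6.65 on the ES arrays and at 8.70 and 8.74 on the progenitor arrays, a rise of 2.15 (adjusted p = 8.59e-08), and Dhrs3, which reduces retinal, rose by 1.54. Of 20 genes for metalloproteases and their inhibitors 2 rose and 6 fell. Timp4 was at 6.37 and 6.45 on the ES arrays and at 9.61 and 9.25 on the progenitor arrays, a rise of 3.02 (adjusted p = 2.65e-07), whereas Timp1, Timp2 and Timp3 fell by 2.43, 2.46 and 2.21. Adamts9, a secreted protease, was at 8.77 and 9.07 on the ES arrays and at 11.96 and 11.86 on the progenitor arrays, a rise of 2.99 (adjusted p = 5e-08). Timp4 and Adamts9 were also above the mesoderm progenitors, by 2.41 and 1.73. The part of feeder RNA in the falls on both lists, those of Timp1, Timp2 and Timp3 among them, was not tested.

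Guidance molecules changed in both directions. Of 25 genes 3 rose and 5 fell, while 1.45% of all genes rose and 3.29% fell. The neuropilins Nrp1 and Nrp2, receptors for semaphorins and Vegf, fell by 2.53 (adjusted p = 4.99e-05) and 2.06 (adjusted p = 6.4e-05), Robo1 by 2.09, Epha4 by 2.26 and Sema3a by 1.93. Nrp1 was at 9.36 and 8.68 on the ES arrays and at 6.62 and 6.36 on the progenitor arrays, and at 10.72 and 11.56 on the F+CD24high D2 arrays, 4.66 above the progenitors. The ephrin Efnb2 rose by 1.13 and the plexin Plxna2 by 1.31. The part of feeder RNA in the falls of guidance genes was not tested.

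Markers of other lineages were mostly not called, as was true of all genes, of which 1.45% rose and 3.29% fell. Of 18 genes of lateral and cardiac mesoderm 0 rose and 3 fell, of 14 of paraxial mesoderm 0 were called by limma (4 had an unadjusted p below 0.05), and of 13 neural genes 1 rose and 2 fell. Hand1, a factor of lateral mesoderm, was at 7.20 and 7.32 on the ES arrays and at 7.40 and 7.50 on the progenitor arrays and at 9.29 and 9.46 on the mesoderm progenitor arrays. Of 17 visceral endoderm genes 1 rose, the endocytic receptor Cubn, and 1 fell, Tfpi (-1.94). Of 9 trophoblast genes 1 rose, Krt7 (1.66, adjusted p = 4.91e-05). The 19 genes of S and G2/M phase were all between -0.32 and 0.21, and 0 of them were called by limma (1 had an unadjusted p below 0.05). Among 13 G1 regulators 1 fell, cyclin D2 (Ccnd2), by 2.18 (adjusted p = 6.92e-05). Immediate early genes, which dissociation and sorting can induce, rose in 3 of 19: Fosb by 1.91, Fos by 1.87 and Atf3 by 1.26. The part of the sort in these rises was not tested. Hes1, a Notch target, rose by 1.41, as 1 of 18 Notch genes, and of 18 glycolysis genes 2 fell, Pfkp by 2.10 and Pdk1 by 1.30.

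**Figure D5:**
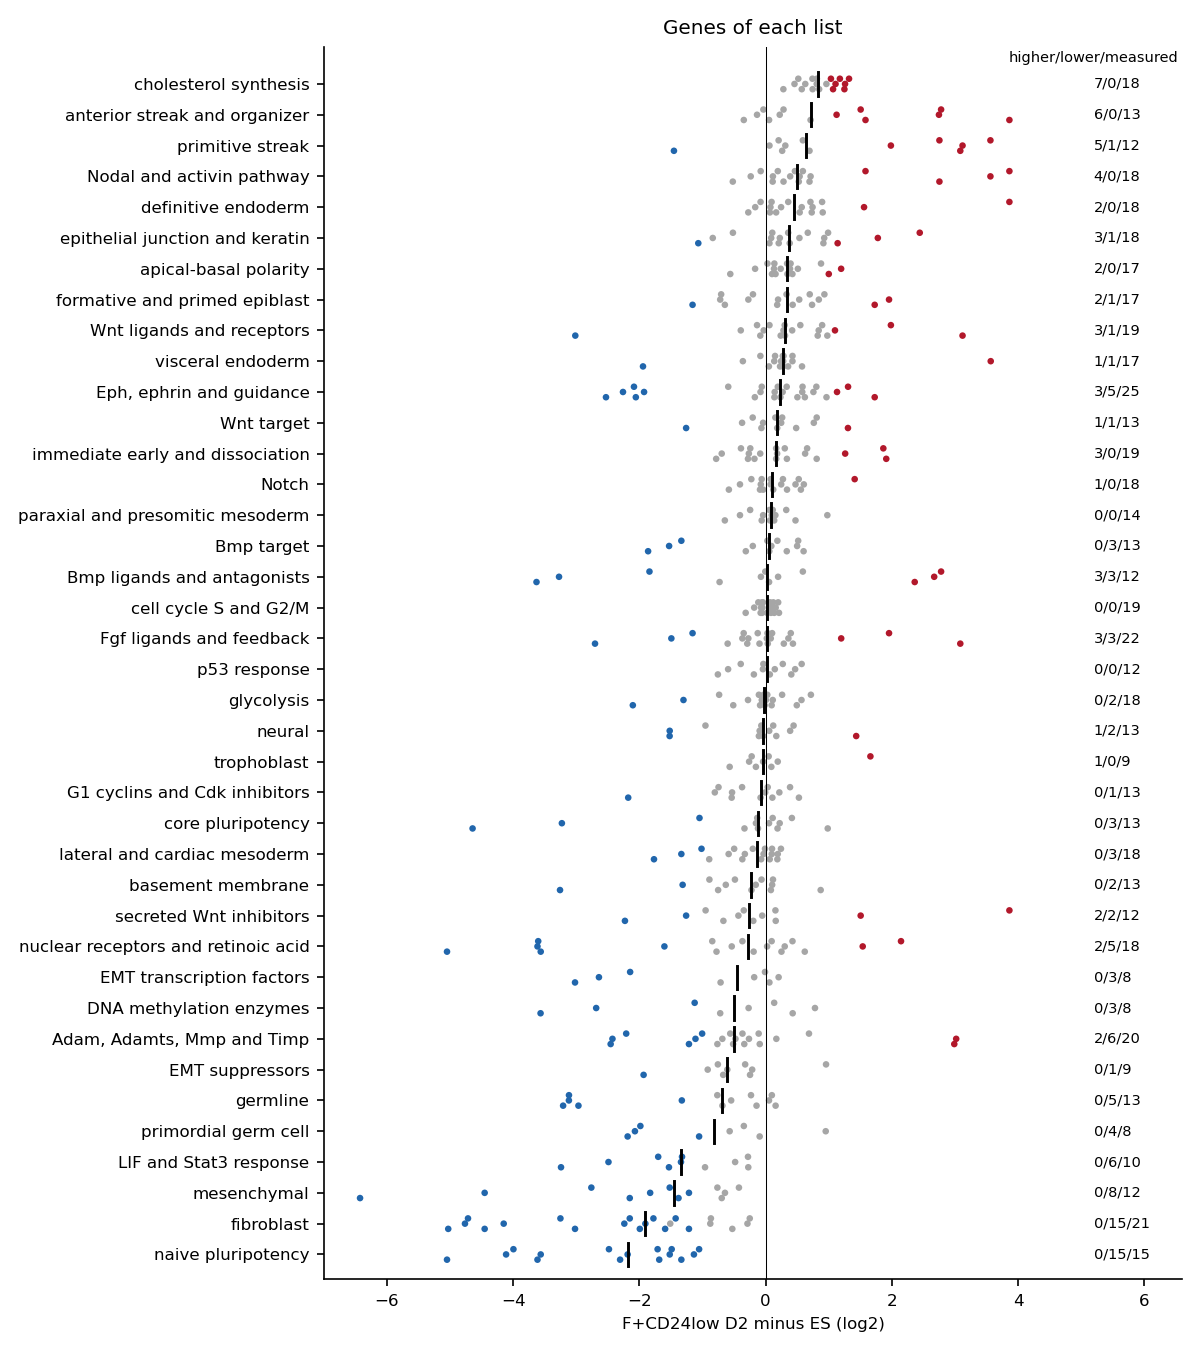
Each point is 1 measured gene of a list, placed by its log2 fold change, F+CD24low D2 minus ES, on the horizontal axis; red genes rose, blue genes fell, grey genes were not called, black bars mark list medians and the numbers at the right give genes higher, lower and measured. Lists are ordered by median, from cholesterol synthesis (0.83) to naive pluripotency (-2.19).

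Srgn and Cubn stood high in the ranking with wide standard errors. Srgn, which encodes the core protein of a granule proteoglycan, was at 7.48 and 8.52 on the ES arrays and at 12.23 and 11.89 on the progenitor arrays. The groups were apart, but the standard error of the rise of 4.06 was 0.96 (adjusted p = 0.0139), since the model pools the spread of all groups and the F+CD24high D2 replicates stood at 7.98 and 12.32. Cubn was at 6.42 and 6.68 on the ES arrays and at 10.46 and 9.77 on the progenitor arrays, a rise of 3.57 (standard error 0.79, adjusted p = 0.0097), with F+CD24high D2 replicates at 6.09 and 9.71. Against the mesoderm progenitors Srgn was 5.65 higher and Cubn 4.49 higher. Ndrg1, a stress-responsive gene, was at 8.42 and 8.63 on the ES arrays and at 11.84 and 11.99 on the progenitor arrays, a rise of 3.39 (adjusted p = 5.03e-08) with no such gap. Alox15, a lipoxygenase, was at 7.93 and 7.27 on the ES arrays and at 10.71 and 10.58 on the progenitor arrays, a rise of 3.04 (adjusted p = 8.79e-07), and was 1.14 lower than in the mesoderm progenitors.

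Among genes called both against ES cells and against the mesoderm progenitors, the highest in the second comparison were Srgn, Cubn, Klhl4, Cer1, Foxa2, Pdzrn3, Ikzf1 and Timp4, and the lowest were Meis2, Id2, Wnt5a, AU015836, Id1, Nrp2, Prdm1 and Anpep. Ikzf1 (Ikaros), a zinc finger factor known from lymphocytes, was at 6.88 and 6.87 on the ES arrays and at 9.63 and 9.32 on the progenitor arrays, a rise of 2.60 (adjusted p = 3.42e-07). It was at 7.13 and 6.94 in the mesoderm progenitors and at 7.25 and 6.83 in F+CD24high D2 cells, near the ES arrays in both. Other genes were called both against ES cells and between the progenitors and F+CD24high D2 cells. The highest of them in F+CD24high D2 cells were Nrp1, Kitl, Dkk1, Cpn1, Prdm1, Slc44a5, Lhx1 and Dpysl3. The lowest there were Nefl, Wnt8a, Pim2, Sox2, Kcng3, Timp4, Ikzf1 and Fndc3c1. Pim2, a kinase, rose by 1.56 against ES cells and was at 9.44 and 9.82 in F+CD24high D2 cells, 3.22 below the progenitors.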

How the data were processed

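Total RNA of 16 samples was measured on as many Affymetrix Mouse Gene ST 1.0 arrays. The authors normalized all arrays together by RMA with oligo 1.48.0 and deposited log2 values per probe set. Quantile normalization hides changes of total RNA, and small signals are compressed toward 0. No genome build for the probe sets is given in the sources used here, and no detection calls were used.

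Groups were taken from the sample labels, which call the replicates biological and give no scan batch. As in the methods of the study, the 32000 brightest probe sets by mean level entered a model in limma 3.58.1 under R 4.3.3 (a mean for each of 8 groups, eBayes), p-values were adjusted by Benjamini-Hochberg over all 32000, and genes were called above a log2 fold change of 1 at an adjusted p below 0.05. Of these probe sets 20427 had 1 gene symbol, 1400 several and 10173 none. A gene was read from its brightest single-symbol probe set. Of 21789 single-symbol probe sets on the array 21698 matched RefSeq, with 0 symbols changed.

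The named genes were the 15 highest and 15 lowest, all members of 40 lists, the sorted genes, and the 8 highest and lowest shared with each other day 2 comparison. The members and the lists were chosen with earlier results of these data known. The fit was tested on simulated data. Other filters, thresholds, array sets, centring, summaries of probe sets, moderation, a replicate block and leaving out each array were tried.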

Additional observations from a re-analysis of the deposited data

Results flagged for a closer look

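Klhl4, a kelch-like gene, and Meis2, a homeobox gene, moved in opposite directions from ES cells in the endoderm and the mesoderm progenitors of day 2. Klhl4 was at 7.68 and 7.44 on the ES arrays and at 10.42 and 9.78 on the progenitor arrays, and at 6.17 and 6.10 on the T+CD24low D2 arrays. It rose by 2.54 in the endoderm progenitors (adjusted p = 5.09e-06) and changed by -1.43 in the mesoderm progenitors (adjusted p = 0.000401). The direct difference between the progenitors was 3.96 in limma (adjusted p = 1.75e-06). Meis2 was at 8.51 and 7.73 on the ES arrays and at 6.71 and 6.97 on the progenitor arrays, and at 10.31 and 10.40 on the T+CD24low D2 arrays. It fell by 1.28 (adjusted p = 0.0355) and rose by 2.23 (adjusted p = 0.00145), and the direct difference was -3.52 (adjusted p = 0.00035). For Meis2, ES replicate 1 was the higher one, as in 18 of 21 fibroblast genes, and the part of feeder RNA in its fall was not tested. All of these comparisons share arrays. Groups of 2 arrays are too small for a check of single outlying samples.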

How the results depend on the processing

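Of the 599 genes that could be named, 208 were called, 162 of them under every setting, and 0 changed direction. A total of 19 lost their call under a setting other than leaving out an array. The counts of called genes moved mainly with the filter and the threshold. With 16000 probe sets kept, fewer genes were tested, and those lower than in ES cells numbered 280 instead of 616, with 7 of the naive, 0 of the germline and 9 of the fibroblast list. With an adjusted p below 0.05 alone, 1772 genes were higher and 1945 lower, among them 8 germline genes lower and, higher, 6 definitive endoderm and 17 cholesterol genes. With a log2 fold change above 2, 47 were higher and 192 lower: 8 naive, 2 LIF and 9 fibroblast genes lower, and 3 anterior streak, 1 definitive endoderm and 0 cholesterol genes higher. The treat test of limma, at a minimum log2 fold change of 1, gave 64 higher and 243 lower, with 8 naive, 2 LIF and 9 fibroblast genes lower and 3 anterior streak and 0 cholesterol genes higher. The comparison of the endoderm with the mesoderm progenitors called 79 and 63 genes instead of 121 and 101 when the 8 ES and day 2 arrays were fitted alone.

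Leaving out 1 array at a time gave 245 to 330 genes higher and 603 to 647 lower than in ES cells. The naive list then held 12 to 15 lower genes, with 12 when ES replicate 2 was left out, the core list 2 to 3, the LIF list 5 to 7, the fibroblast list 14 to 16 and the cholesterol list 6 to 8 higher genes. The germline (5), primitive streak (5), anterior streak (6), definitive endoderm (2) and EMT factor (3) counts did not move. Against mesoderm progenitors the range was 79 to 132 higher and 67 to 86 lower, with 79 higher without T+CD24low D2 replicate 2, 80 without F+CD24low D2 replicate 1, and 67 lower without T+CD24low D2 replicate 1. From progenitors to F+CD24high D2 cells it was 308 to 406 higher and 297 to 403 lower. A group left with 1 array was assumed to vary like the others. Same-numbered replicates of ES and F+CD24low D2 did not deviate together (r = -0.06), and a pairing between other groups was not tested. With the replicate number as a block the counts were 271 higher and 616 lower.

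The signal of RMA values over background is unknown here, and falls to low levels are bounded by the floor of the array. The ES cells were grown on feeders and not sorted, and the parts of feeders and sort in the falls of fibroblast genes and the rises of immediate early genes were not tested.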

Other observations

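Genes of motile cilia were among the risers, in a grouping chosen after the values were seen. Of 59 measured genes with the symbols Cfap, Rsph, Dnah, Dnai, Dnaaf and Drc, 6 rose (10.2%, against 1.45% of all genes) and 0 fell. These symbols name proteins of cilia and flagella or of their assembly. The median was 0.19, and 50 of the 59 were above 0, as were 57.7% of all genes and 175 of the 233 microRNA genes. Rsph4a, a radial spoke protein, was at 6.31 and 7.07 on the ES arrays and at 8.67 and 7.99 on the progenitor arrays, a rise of 1.64 (adjusted p = 0.000911), and Cfap206, Cfap299, Cfap126, Cfap44 and Cfap300 rose by 1.42, 1.36, 1.25, 1.15 and 1.12. Foxj1 and Rfx3, transcription factors of ciliogenesis, rose by 1.13 and 1.70, and Nme5, Mak, Pkd1l1 and Enkur, which act in cilia, by 2.71, 2.11, 1.81 and 1.35. These genes lie outside the grouping by symbol and do not add to its count, and no share is given for genes of their kind. Nme5 was at 6.22 and 6.12 on the ES arrays and at 9.10 and 8.66 on the progenitor arrays, and at 7.06 and 6.85 on the F+CD24high D2 arrays, so that its level was highest in the progenitors of these groups.

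Zinc finger genes of the Zfp symbols fell more often than they rose, as all genes did. Of 344 measured, 3 rose (0.872%, against 1.45% of all genes) and 19 fell (5.52%, against 3.29%), with a median of -0.03. Zfp980 was at 11.12 and 11.78 on the ES arrays and at 5.93 and 5.83 on the progenitor arrays, and fell by 5.57 (adjusted p = 1.34e-06), Zfp640 was at 9.53 and 10.75 on the ES arrays and at 4.82 and 4.63 on the progenitor arrays, and fell by 5.42, and Zfp979, chosen after its values were seen, fell by 3.54. ES replicate 2 was the higher one in each of the 3. Genes of this family have near-identical copies, so a probe set may read more than 1 of them.

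Some single genes outside the naming rule were seen after ranking. Xist, the RNA of the inactive X chromosome, was at 8.54 and 8.05 on the ES arrays and at 5.22 and 5.65 on the progenitor arrays, and fell by 2.86 (adjusted p = 9.33e-07). ES replicate 1 was the higher one, as in 18 of 21 fibroblast genes, and the part of feeder RNA in the fall of Xist was not tested. Ccl2 and Ccl7, chemokines that fibroblasts secrete, changed by -4.37 and -4.17, and both were called, with ES replicate 1 the higher one in both. Flt1, a Vegf receptor, was at 8.40 and 8.19 on the ES arrays and at 10.34 and 10.05 on the progenitor arrays. Flt1 rose by 1.90 (adjusted p = 3.93e-06) and was 2.10 higher in F+CD24high D2 cells than in the progenitors. Foxq1, a forkhead factor, was at 7.37 and 7.32 on the ES arrays and at 8.99 and 8.89 on the progenitor arrays. Foxq1 rose by 1.60 and was 3.05 higher in F+CD24high D2 cells than in the progenitors. Apln, the apelin ligand, rose by 1.59 and was 1.64 lower than in the mesoderm progenitors.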
